A study of Mus musculus with 64 samples.

Results

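The proteasome was described through the genes that encode it and its accessory proteins, in striatum and cortex of mice that carry an expanded huntingtin allele. Members were all genes whose symbol is Psm followed by a letter from a to g and a number (Psma to Psmg, with Psme2b), which gave 49 of the 48795 genes in the count tables. The proteasome degrades proteins marked with ubiquitin. Its core particle is a barrel of alpha and beta rings with the cleavage sites inside, and a regulatory particle with a ring of ATPases binds, unfolds and feeds in the substrate. After interferon signals, cells make alternative catalytic subunits that form the immunoproteasome, and the activator rings encoded by Psme1 and Psme2 can open the core in place of the regulatory particle. In Huntington's disease the proteasome has been studied because mutant huntingtin accumulates in inclusions that also hold ubiquitin, and the cells most affected are the striatal spiny projection neurons.

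RNA was sequenced from 4 genotypes on a C57BL/6 background at 6 months of age: Q140 (a knock-in of an expanded CAG repeat into mouse Htt), Q140 with 1 disrupted copy of Polq, Polq+/- alone and wild type. The knock-in was heterozygous in both Q140 groups and Polq encodes the DNA repair enzyme polymerase theta. Each genotype had 8 mice, 4 females and 4 males, and each mouse gave 1 library of striatum and 1 of cortex, 64 libraries from 32 animals. By their well addresses, striatal and cortex libraries lay in different plate columns. Within a tissue the genotypes were spread unevenly over the columns. The first striatal column held wild-type libraries but none of the Q140 group without the Polq disruption. The mice labelled Q140 Polq+/- were set against mice labelled Polq+/-, and Q140 against wild type, to ask what the knock-in did in the presence and the absence of the Polq disruption. Values are library-scaled counts (CPM, TMM-scaled within a tissue), given as the lowest, median and highest of 8 mice, and log2 fold changes come from edgeR's quasi-likelihood test with Benjamini-Hochberg adjustment over all genes tested. A gene was called when its adjusted p was under 0.05. In bulk tissue, fewer cells of a type and less RNA per cell cannot be told apart.

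Total gene counts ran from 28.7 to 40.6 M in striatum and from 30.9 to 40.1 M in cortex. Polq had a median of 1.81 CPM in striatum of mice labelled Q140 Polq+/- and 3.25 CPM in Q140, and 1.72 CPM in mice labelled Polq+/- and 3.11 CPM in wild type. Of the 16 mice labelled with the disruption, the 4 lowest lay at 0.187 to 0.376 CPM in striatum and the other 12 at 1.31 to 2.42 CPM, so the label of 1 intact copy is in doubt for those 4 and the groups are called by their labels. Htt was not called in striatum of Q140 against wild type (-0.05, adjusted p = 0.534) and its reads do not separate the alleles. Spiny neuron markers summed to 7724 to 9120 CPM in Q140 striatum and 12800 to 15640 CPM in wild-type striatum, with no marker at 0 in all libraries of a group. In striatum, 3 libraries stood apart from their groups: those of female 3 labelled Polq+/- and of wild-type males 2 and 3. They were listed by name, with no numeric rule given here. Summed cerebellar granule markers had a median of 22.8 CPM and a highest value of 251.2 CPM in wild-type striatum. Summed choroid plexus markers had a median of 33.3 CPM and a highest value of 1390 CPM in striatum labelled Polq+/-.

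Wild-type male 3 stood apart in the proteasome genes themselves. Over the 48 members tested its striatal library lay a median 0.256 (log2) above the median of the other 7 libraries of its group, where the next largest median absolute deviation of any of the 64 libraries was 0.071. It was the highest of the 8 wild-type libraries for 37 of 48 members and the lowest for 0, while over all genes it was the highest for 25.1% and the lowest for 24.5%. All 6 ATPases, all 3 constitutive catalytic subunits and 7 of 8 alpha ring genes were highest in this library. Of the 11 other proteasome-associated genes 7 were highest there, and of 19 ubiquitin genes 11. The cortex library of the same mouse was the highest for 5 of 48 members, with a median deviation of -0.004. Oligodendrocyte markers also lay above the median of the other wild-type libraries in this sample, in 8 of 8 genes with a median of 0.22, and microglial markers in 12 of 15 with a median of 0.16; their part in the deviation was not tested. The striatal and between-tissue counts of called members, and the values of some members, are therefore given with and without this mouse. It was left out after its values of these same genes were seen to be high. Leaving it out therefore raises the Q140 change of most members and narrows the wild-type spread by construction. Calls gained in this way are no independent test. Other values that rest on the wild-type striatal group are given with all libraries. Among them are the wild-type levels, the marker lists and the genes outside the Psm symbols.

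**Figure D1:**
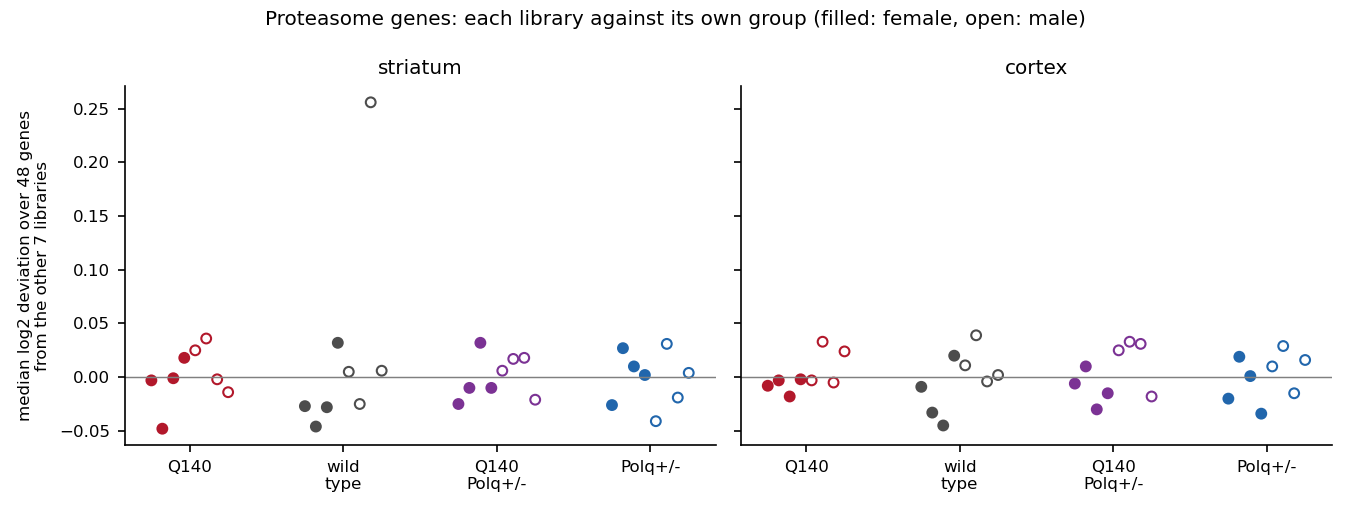
Median log2 deviation of the 48 tested proteasome genes in each library from the median of the other 7 libraries of its group (vertical axis, filled points females and open points males), for striatum and cortex, 8 mice per genotype, 1 point per library. Wild-type striatum male 3 sits at 0.256 and every other library close to 0.

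In wild-type tissue the core and regulatory particle genes were expressed at far higher FPKM (a level scaled to gene length and library size) than the immunoproteasome genes. In wild-type striatum the highest mean was that of Psmb1, a beta ring subunit without a cleavage site, at 85.7 ± 9.64 FPKM (SD, n = 8), followed by the ATPases Psmc5 at 78.9 ± 6.28 and Psmc1 at 65.9 ± 5.34 FPKM. The means of Psmb1 and Psmc5 differed by less than the SD of Psmb1. The 14 constitutive core genes spanned 7.54 to 85.7 FPKM (median 29.6) in striatum and 8.01 to 75.5 FPKM (median 26.8) in cortex, although the assembled core holds equal copies of each subunit.

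The 3 catalytic subunits of the constitutive core were at 38.5 ± 3.95 FPKM for Psmb5 (chymotrypsin-like activity), 37.6 ± 4.15 FPKM for Psmb6 (caspase-like) and 19.2 ± 2.41 FPKM for Psmb7 (trypsin-like) in wild-type striatum. Psmb5 and Psmb6 did not differ beyond their spread. Their interferon-inducible replacements were at 0.933 ± 0.114 FPKM for Psmb8, which takes the place of Psmb5, at 0.265 ± 0.0343 FPKM for Psmb9, which takes the place of Psmb6, and at 3.82 ± 0.646 FPKM for Psmb10, which takes the place of Psmb7. Set against its partner per mouse, Psmb8 reached 2.43% ± 0.24 of the Psmb5 level, Psmb9 0.713% ± 0.122 of Psmb6 and Psmb10 19.9% ± 1.53 of Psmb7 (SD, n = 8). The testis-associated alpha subunit Psma8 had 4 to 18 counts per wild-type striatal library. The thymus-specific Psmb11 had 0 or 1 count in each and was the only member left out of the tests by the filter on low counts.

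**Figure D2:**
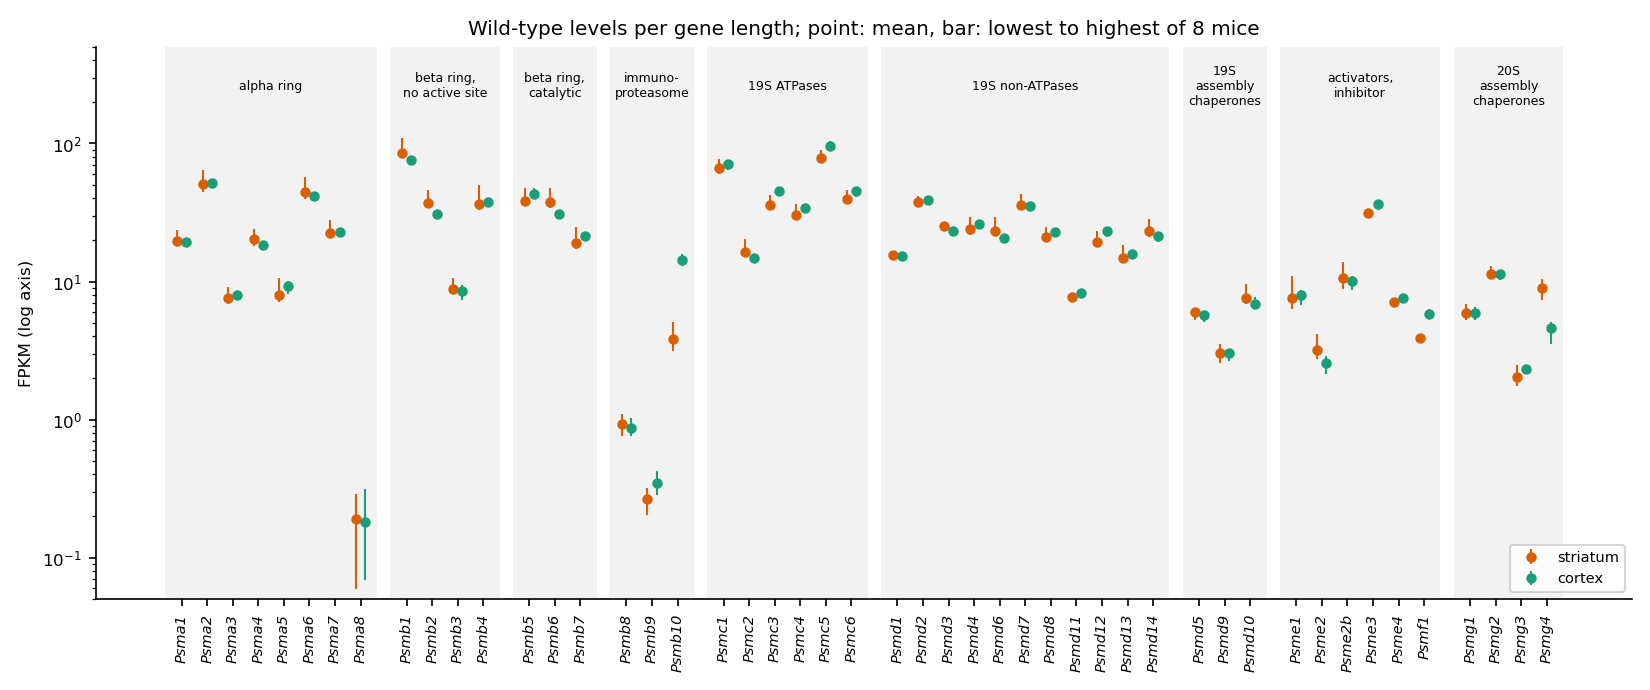
Mean FPKM over 8 wild-type mice (point) with the lowest to highest mouse (bar) for each member in striatum and cortex (log axis), grouped by role; Psmb11, near 0, is not drawn. Psmb1 and Psmc5 lead both tissues and Psmb8, Psmb9 and Psma8 are the lowest drawn, while Psmb10 stands at 3.82 FPKM in striatum and 14.4 FPKM in cortex.

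Striatum and cortex of wild-type mice differed in most members, with Psmb10 the largest difference. Tissue and plate column cannot be told apart in this comparison. In the fit of both tissues with the mouse as a block, 11 members were higher and 22 lower in striatum than in cortex, 68.8% of those tested, where 77.2% of all genes were called. Without wild-type male 3 the counts were 10 higher and 25 lower, 72.9% of members and 76.5% of all genes. Psma2, Psma7 and Psme1 were added and Psmd10 was lost. The median absolute difference was 0.13 over members and 0.38 over all genes. On a common scale Psmb10 had 5.48, 6.34 and 8.41 CPM in wild-type striatum and 22.7, 24.9 and 27.1 CPM in wild-type cortex, a log2 difference of -1.95 (SE 0.0553, adjusted p = 1.07e-30). The lowest cortex library lay far above the highest striatal one.

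Psmf1 encodes a protein that inhibits the core in vitro and links proteasomes to transport motors. It had 23.7, 25.4 and 27.1 CPM in wild-type striatum and 35.9, 37.5 and 41.5 CPM in wild-type cortex, again with no overlap (-0.58, SE 0.0314, adjusted p = 1.2e-20). Psmb9 was the next lowest (-0.39, SE 0.157, adjusted p = 0.0216), on about 1 CPM in each tissue, and its call was lost when any of 3 wild-type mice was left out. In the other direction Psmg4, a chaperone of alpha ring assembly, had 4.07, 5.07 and 5.73 CPM in wild-type striatum and 2.01, 2.75 and 2.89 CPM in wild-type cortex (0.95, SE 0.0766, adjusted p = 7.59e-15). All 8 striatal libraries lay above all 8 of cortex. The activator subunit Psme2 (0.28, SE 0.0691, adjusted p = 0.000374) and Psmb6 (0.25, SE 0.0308, adjusted p = 8.06e-10) were also higher in striatum, while the other constitutive catalytic subunits were lower there, Psmb5 and Psmb7 both at -0.18. Psme2b, a copy of Psme2 with reads that cannot be told apart with certainty, was at 0.05 and not called. Of the 6 ATPases 5 were lower in striatum and 1 higher, Psmc2 at 0.12.

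In striatum of Q140 mice the largest called rises among the proteasome genes were those of the activator gene Psme1 and the immunoproteasome gene Psmb10. Against wild type 5 members were higher and 5 lower, 20.8% of the 48 tested, where 32.1% of all genes were called. Without wild-type male 3 the shares were 35.4% of members and 33.8% of all genes. The higher ones were the activator genes Psme1 and Psme4, the immunoproteasome gene Psmb10, Psmf1 and the base assembly chaperone Psmd9, and the lower ones were the immunoproteasome gene Psmb8, the ATPases Psmc1, Psmc2 and Psmc5, and the regulatory particle subunit Psmd3. The median absolute log2 change was 0.04 over members and 0.12 over all genes, and 43 of 48 members changed by less than 0.2 in either direction. The median standard error was 0.0379 for members and 0.0608 for all genes.

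In mice labelled Q140 Polq+/- against those labelled Polq+/-, 6 members were higher and 0 lower, 12.5% against 31.4% of all genes. These were Psme1, Psme2, Psme2b, Psmb10, Psmf1 and Psmd8. By edgeR 8 members reached an unadjusted p under 0.05 there, and the count of lower members was also 0 by DESeq2 and by limma on FPKM. On FPKM 75.9% of all called genes were higher. The lower count was 1 without wild-type male 3, 1 without the 3 libraries that stood apart and 2 with only the groups compared. Psme1, Psmb10 and Psmf1 were called in both comparisons, which is 30% of the 10 calls and 50% of the 6, where the genes called in both in the same direction were 72.5% and 74.2% of all those called. Of the members 34 of 48 members (70.8%) had the same sign in both, against 79.1% of all genes. With both comparisons averaged, all Q140 carriers against all non-carriers gave 10 members higher and 5 lower, 31.2% against 44.8% of all genes.

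**Figure D3:**
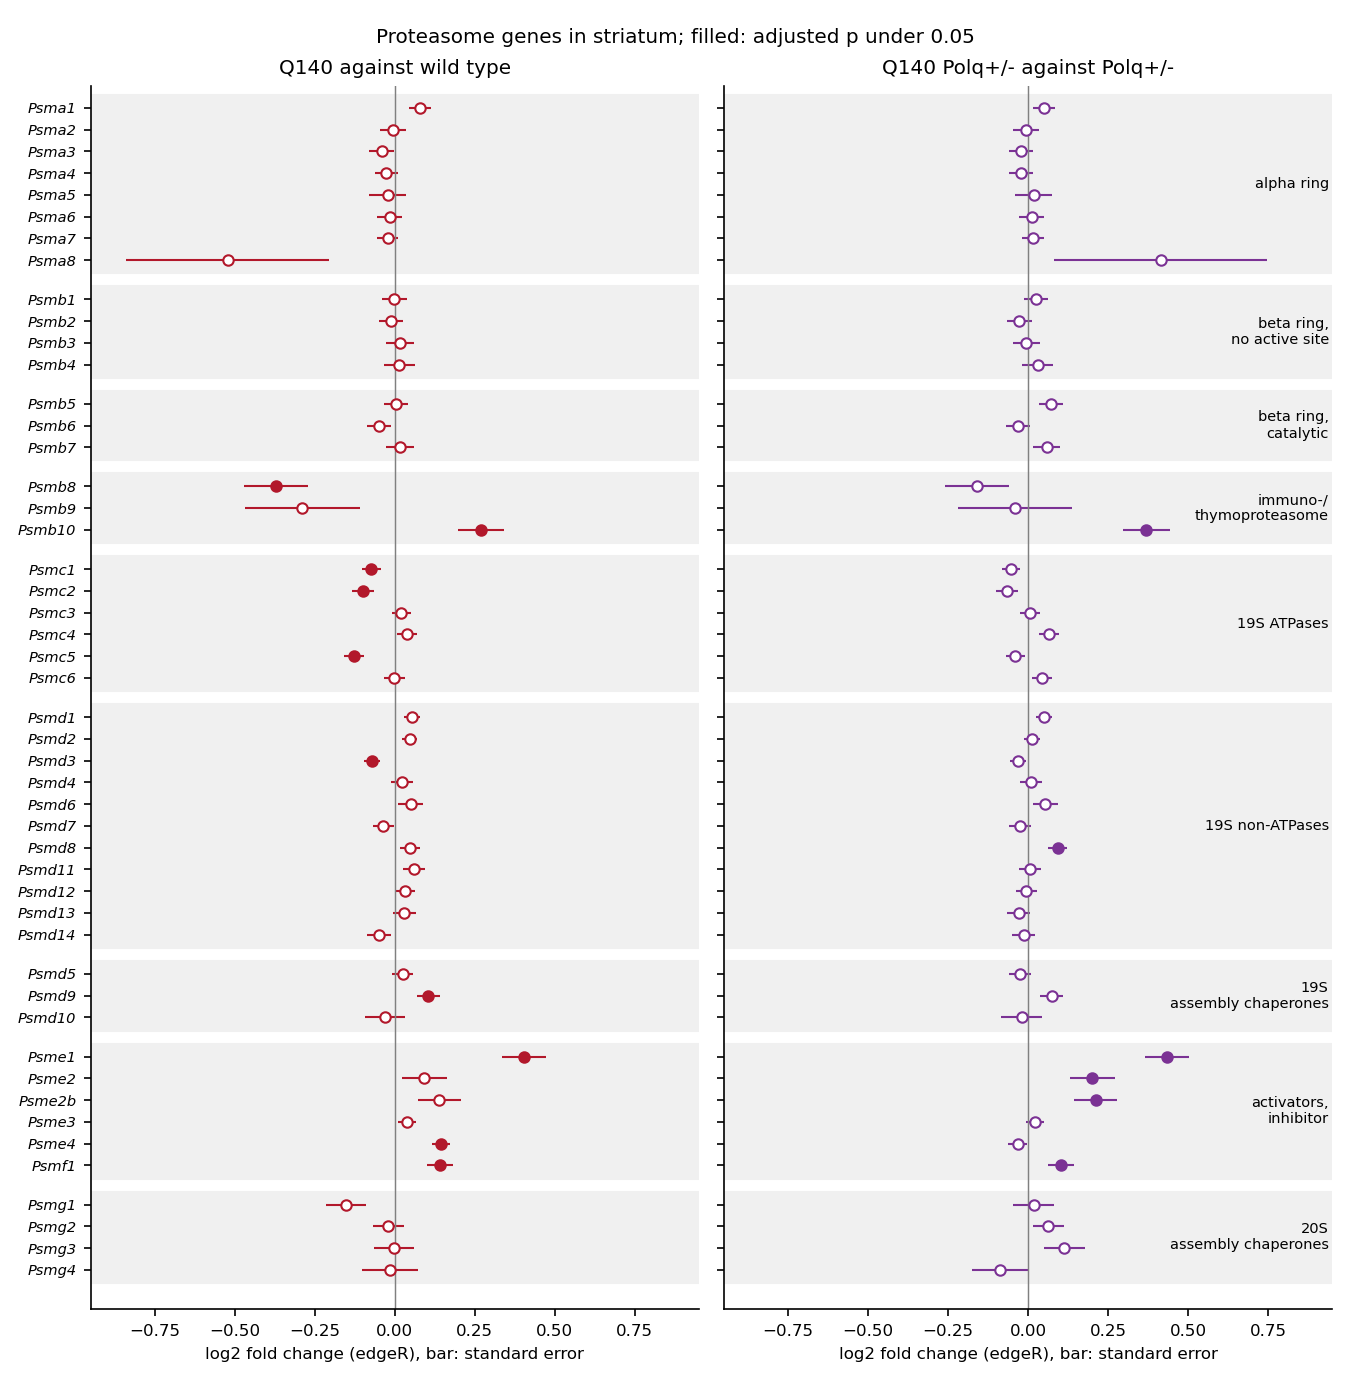
Log2 fold change with standard error for each tested member in striatum, for Q140 against wild type and for mice labelled Q140 Polq+/- against those labelled Polq+/-, grouped by role. Psme1 and Psmb10 stand to the right in both comparisons (0.40 and 0.27; 0.44 and 0.37), and filled points are called. The alpha ring genes other than the low-count Psma8 and the constitutive beta ring genes lie within 0.1 of 0.

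These counts were different with limma on the deposited FPKM, which changes both the scale and the test, and without wild-type male 3. DESeq2's size factors in edgeR left them at 5 and 5 in Q140 against wild type and gave 5 and 0 in Q140 Polq+/- against Polq+/-. On FPKM, limma called 5362 genes higher and 1805 lower in Q140 against wild type (74.8% higher), against 3095 higher and 2774 lower on counts, and of the members 16 were higher and 1 lower. Without wild-type male 3, on counts, 14 were higher and 3 lower; 8 of the 10 calls were kept, Psmc1 and Psmc2 were lost, and Psma1, Psmb4, Psmc4, Psmd2, Psmd6, Psmd8, Psmd12, Psmd13 and Psme2b were added. In Q140 Polq+/- against Polq+/- the counts without that mouse were 8 higher and 1 lower with all 6 calls kept (18.8% of members and 34.7% of all genes), and on FPKM 18 higher and 0 lower with 75.9% of all called genes higher. For all carriers they were 17 higher and 5 lower with all 15 kept (45.8% of members and 46.8% of all genes), and on FPKM 28 higher and 1 lower with 75.0% of all called genes higher.

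Psme1 and Psme2 encode the alternating subunits of the interferon-inducible activator ring. Psme1 (plus strand, chr14:55578123-55581529 on GRCm38) had 20.5, 23.2 and 24.6 CPM in Q140 striatum, against 14.4, 16.7 and 24.1 CPM in wild-type striatum. It had 20.8, 22.3 and 26.7 CPM in mice labelled Q140 Polq+/-, against 13.2, 17.4 and 18.3 CPM in those labelled Polq+/-. All 8 mice of each Q140 group lay above the median of their control group, the second pair of groups did not overlap, and the first overlapped through wild-type male 3 alone, whose 7 group mates ended at 17.4 CPM. The log2 fold change was 0.40 (SE 0.0688, adjusted p = 1.74e-05) in Q140 against wild type, 0.44 (adjusted p = 5.3e-06) in the presence of the Polq disruption and 0.42 (adjusted p = 6.84e-09) over all carriers. Without wild-type male 3 the first was 0.48 (SE 0.0563, adjusted p = 1.2e-08). The 3′ end of Psme1 overlaps that of Emc9 on the opposite strand, and Emc9 was at 0.06 (adjusted p = 0.338) and 0.18 (adjusted p = 0.00373) in the same comparisons. Whether counting used strand is not stated, so reads of the shared end cannot be assigned with certainty.

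Psme2 (minus strand, chr14:55587441-55591113) lies close to Psme1 on the same chromosome. It had 5.62, 6.21 and 6.45 CPM in Q140 striatum, against 5.04, 5.52 and 7.28 CPM in wild-type striatum (0.09, SE 0.0701, adjusted p = 0.347). It had 5.82, 6.19 and 8.07 CPM in mice labelled Q140 Polq+/-, against 4.93, 5.50 and 6.36 CPM in those labelled Polq+/- (0.20, adjusted p = 0.027). All 8 mice of both Q140 groups lay above the control median although the ranges overlapped, and the averaged change was 0.15 (adjusted p = 0.0157). With the plate column as a factor the second and the averaged call were lost (adjusted p = 0.0813 and 0.0583), and the second was also lost when any of 3 single libraries was left out, female 1 or male 4 labelled Polq+/- or male 4 labelled Q140 Polq+/-. Psme2b, an intronless copy of Psme2 with reads that cannot be told apart with certainty, was at 0.14 (adjusted p = 0.115), 0.21 (adjusted p = 0.0135) and 0.17 (adjusted p = 0.00251) in the 3 comparisons. Per length, Psme1 stood at 299% ± 32.9 of Psme2 in Q140 striatum and 240% ± 24.6 in wild-type striatum, and at 287% ± 17.6 and 246% ± 37.6 in mice labelled Q140 Polq+/- and Polq+/- (SD, n = 8). These ratios leave out Psme2b, which was above Psme1 in wild-type striatum. Psme2b was at 10.6 FPKM there, Psme1 at 7.66 FPKM and Psme2 at 3.19 FPKM. The ratios therefore depend on how reads were split between Psme2 and Psme2b.

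The remaining activator genes behaved differently from each other. Psme3, whose product forms the nuclear activator ring, was at 0.04 (adjusted p = 0.306) and 0.02 (adjusted p = 0.597) in the 2 comparisons. Psme4, which encodes a large single-chain activator, had 64.4, 67.1 and 69.9 CPM in Q140 striatum, against 57.6, 61.2 and 63.0 CPM in wild-type striatum, with no overlap (0.14, adjusted p = 0.000151). In mice labelled Q140 Polq+/- it had 61.3, 64.03 and 68.2 CPM, against 60.8, 66.3 and 69.9 CPM in those labelled Polq+/- (-0.03, adjusted p = 0.437). Its interaction term between the knock-in and the Polq label was -0.18 (SE 0.0411), which did not pass (adjusted p = 0.996). Psme4 was named after its values were seen.

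Psmf1 (minus strand, chr2:151715812-151744186) had 26.1, 28.1 and 31.7 CPM in Q140 striatum, against 23.9, 25.8 and 27.6 CPM in wild-type striatum (0.14, SE 0.041, adjusted p = 0.00646). It had 25.3, 28.3 and 32.6 CPM in mice labelled Q140 Polq+/-, against 24.3, 26.3 and 28.3 CPM in those labelled Polq+/- (0.10, adjusted p = 0.0492). The ranges overlapped in both, with 8 of 8 and 6 of 8 mice above the control median. The second call lay at the threshold, and it was lost under 8 of the other settings, among them DESeq2 (adjusted p = 0.0607), and when any of 15 single libraries was left out. The first was lost with the plate column as a factor (adjusted p = 0.0597).

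The immunoproteasome subunits did not move together. Psmb10 (minus strand, chr8:105935735-105938444) had 6.83, 8.08 and 9.15 CPM in Q140 striatum, against 5.58, 6.41 and 8.54 CPM in wild-type striatum. It had 7.10, 8.10 and 9.07 CPM in mice labelled Q140 Polq+/-, against 5.36, 6.39 and 6.99 CPM in those labelled Polq+/-. All 8 mice of each Q140 group lay above the control median and the second pair of groups did not overlap. The log2 fold change was 0.27 (SE 0.0727, adjusted p = 0.00351), 0.37 (adjusted p = 0.000108) and 0.32 (adjusted p = 2.44e-06) in Q140, in mice labelled Q140 Polq+/- and over all carriers. The highest wild-type value was male 3, and without it the first was 0.32 (SE 0.0705, adjusted p = 0.000415). Relative to Psmb7, Psmb10 stood at 23.8% ± 2.6 in Q140 striatum and 19.9% ± 1.53 in wild-type striatum, and at 23.9% ± 2.32 and 19.3% ± 1.97 in mice labelled Q140 Polq+/- and Polq+/-.

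Psmb10 and Psmf1 are also the members that were lowest in striatum relative to cortex, so markers of cortical excitatory neurons were examined beside them. Of 6 such markers tested in striatum 2 were called higher and 0 lower in Q140, where 32.1% of all genes were called, and the same 2 in mice labelled Q140 Polq+/-, among them Cux2 (0.40, adjusted p = 1.67e-05, and 0.41). In each comparison 4 of the 6 lay above 0 and 2 below, with a range of -1.04 to 1.37 in Q140 and -0.28 to 1.13 in mice labelled Q140 Polq+/-. The 8 markers summed to 22.9 to 27.3 CPM in Q140 striatum and 17.9 to 48.7 CPM in wild-type striatum, and to 22.2 to 26.4 CPM and 17.1 to 23.7 CPM in mice labelled Q140 Polq+/- and Polq+/-. None was at 0 in all libraries of a group. Their part in the change of Psmb10 and Psmf1 was not tested.

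Psmb8 (plus strand, chr17:34197721-34201454) moved the other way. It had 1.43, 2.08 and 2.47 CPM in Q140 striatum, against 2.08, 2.61 and 3.04 CPM in wild-type striatum (-0.37, SE 0.101, adjusted p = 0.00374), and all 8 Q140 mice lay below the wild-type median. It had 1.66, 2.15 and 2.67 CPM in mice labelled Q140 Polq+/-, against 2.10, 2.36 and 2.79 CPM in those labelled Polq+/- (-0.16, adjusted p = 0.248), with 6 of 8 below the median. The change over all carriers was -0.27 (adjusted p = 0.00225). These values rest on 42 to 119 counts per library. Psmb9 had 0.496, 0.736 and 1.25 CPM in Q140 striatum, against 0.779, 0.975 and 1.201 CPM in wild-type striatum (-0.29, adjusted p = 0.236), and was not called in any Q140 comparison. It overlaps Tap1 on the opposite strand.

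Microglial markers lay below 0 in both comparisons, as did most markers of endothelium, astrocytes and oligodendrocytes. Of 15 markers 11 were called lower and 0 higher in Q140 against wild type (median -0.16, where 32.1% of all genes were called in either direction), with a summed level of 527.7 to 592.5 CPM in Q140 striatum and 593.6 to 667.7 CPM in wild-type striatum. In mice labelled Q140 Polq+/-, where Psmb8 was not called, 1 of 15 was called lower although all 15 lay below 0 (median -0.09), and the sum was 537.8 to 632.0 CPM, against 574.6 to 628.3 CPM in those labelled Polq+/-. Over all carriers 15 of 15 were called lower, where 44.8% of all genes were called in either direction. Endothelial markers were called lower in 6 of 8 genes in Q140 and in 5 of 8 in mice labelled Q140 Polq+/-. Astrocyte markers lay below 0 in 8 of 8 (median -0.11, 2 called) and 7 of 8 (median -0.07, 3 called). Oligodendrocyte markers lay below 0 in 7 of 8 in each comparison (medians -0.16 and -0.18, 4 called in each). No marker of these lists was at 0 in all libraries of a group, and their part in the Psmb8 values was not tested.

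**Figure D4:**
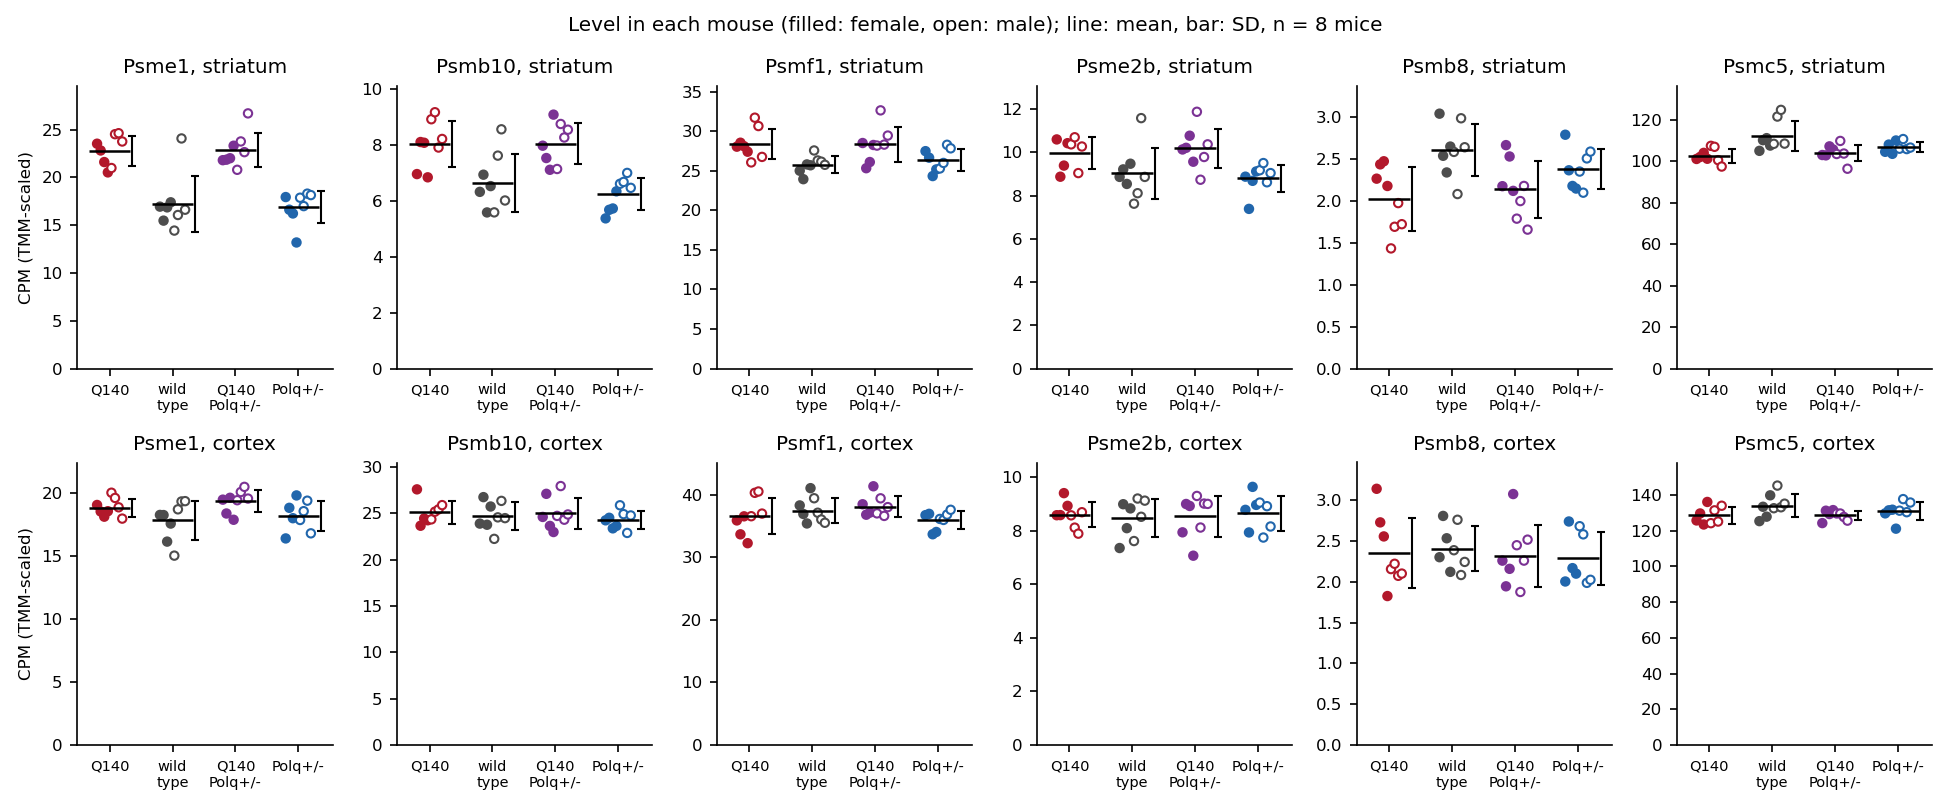
CPM of single mice (points) with the group mean and SD for Psme1, Psmb10, Psmf1, Psme2b, Psmb8 and Psmc5 in striatum and cortex, 8 mice per genotype, filled points females and open points males, each axis from 0. In striatum Psme1 and Psmb10 lie higher in both Q140 groups, with wild-type male 3 as the high wild-type point, while Psmb8 lies lower in Q140.

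Upstream sequences are shown for Psme1, Psme2 and Psmb10, which were called higher in mice labelled Q140 Polq+/-, and for the constitutive catalytic genes Psmb5 and Psmb6, which were not called there by edgeR with all libraries. They are RefSeq sequences on GRCm38.p6, 5′ to 3′ on the gene's own strand, limited to the longest stretch before the start site that no annotated exon covers, with matches to the searched motifs in capitals. The stretches are chr14:55578249-55578359 (plus strand) for Psme1, chr14:55591114-55591351 (minus) for Psme2, chr8:105938445-105938642 (minus) for Psmb10, chr14:54618023-54618245 (minus) for Psmb5 and chr11:70525107-70525356 (plus) for Psmb6. For Psme1 the RefSeq start used lies inside the gene as GENCODE places it (chr14:55578123-55581529). The Psme1 stretch is therefore downstream of the GENCODE start, and 139 bases of its 250-base window are exonic.
Psme1: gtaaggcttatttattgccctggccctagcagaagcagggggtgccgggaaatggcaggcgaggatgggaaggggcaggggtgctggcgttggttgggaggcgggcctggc
Psme2: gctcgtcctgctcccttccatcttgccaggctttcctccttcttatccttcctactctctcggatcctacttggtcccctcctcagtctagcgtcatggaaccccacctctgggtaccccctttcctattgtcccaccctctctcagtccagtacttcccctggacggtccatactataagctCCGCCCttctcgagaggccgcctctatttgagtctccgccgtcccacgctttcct
Psmb10: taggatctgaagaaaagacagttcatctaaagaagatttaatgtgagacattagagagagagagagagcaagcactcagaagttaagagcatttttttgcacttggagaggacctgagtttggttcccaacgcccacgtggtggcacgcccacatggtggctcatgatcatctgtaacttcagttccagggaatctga
Psmb5: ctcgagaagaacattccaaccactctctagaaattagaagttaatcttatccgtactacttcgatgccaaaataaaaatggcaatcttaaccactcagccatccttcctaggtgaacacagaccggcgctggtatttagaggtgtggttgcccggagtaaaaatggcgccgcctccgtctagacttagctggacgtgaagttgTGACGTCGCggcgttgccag
Psmb6: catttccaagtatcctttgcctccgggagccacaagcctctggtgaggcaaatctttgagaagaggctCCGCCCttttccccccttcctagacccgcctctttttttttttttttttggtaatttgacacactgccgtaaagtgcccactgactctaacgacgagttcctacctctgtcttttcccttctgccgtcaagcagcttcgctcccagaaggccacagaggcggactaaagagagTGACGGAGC
The motifs were searched on both strands in the 250 bases before the start, with exonic bases included in the search. They were GAAANNGAA, the core of an interferon response element, TGACNNNGC, the core of the element bound by the proteasome gene regulator Nfe2l1 and its relatives, GGGCGG, a GC box, and CCAAT. No 2 of these overlap in the stretches shown. In Psmb5 the capitals are TGACGTCGC at positions -47 to -39 and in Psmb6 TGACGGAGC at -9 to -1, counted back from the start. In Psme2 and Psmb6 the other capitals are a GC box read from the opposite strand. The interferon core was found in 3 of the 41 members with a window (7.32%, Psmb3, Psmd4 and Psmd9) and in 7.13% of all 32851 windows. It was not found in the windows of Psme1, Psme2 and Psmb10. The Psme1 window does not reach the sequence before the GENCODE start, so that sequence was not searched. The Nfe2l1-type core was in 5 members (12.2%, with 10.2% of all windows), the GC box in 22 (53.7%, with 32.7%) and CCAAT in 14 (34.1%, with 33.8%). The 2 shares are unlike measures. A member counted once if any of its windows held the motif (44 windows for 41 members), while the other share is per window.

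None of the constitutive catalytic subunits was called in striatum by edgeR with all libraries, or by DESeq2, and 0 of 3 had an unadjusted p under 0.05. Of all genes edgeR called 32.1% in Q140 and 31.4% in mice labelled Q140 Polq+/-. On FPKM limma called 0 of 3 in Q140 against wild type and 2 of 3 in mice labelled Q140 Polq+/-, Psmb5 (adjusted p = 0.00519) and Psmb7 (adjusted p = 0.0258). Psmb5 had 32.3, 34.5 and 35.9 CPM in Q140, against 32.1, 33.1 and 41.3 CPM in wild type, and 34.3, 35.6 and 36.6 CPM in mice labelled Q140 Polq+/-, against 31.8, 34.1 and 35.7 CPM in those labelled Polq+/- (0.00 and 0.07). Psmb6 had 66.8, 69.5 and 72.8 CPM in Q140, against 66.2, 70.4 and 87.9 CPM in wild type (-0.05), and Psmb7 had 65.1, 67.2 and 72.5 CPM, against 60.8, 65.1 and 83.7 CPM (0.02). In all 3 the highest wild-type value was male 3, and the other wild-type mice ended at 34.9, 73.6 and 70.3 CPM. In mice labelled Q140 Polq+/- Psmb6 and Psmb7 were at -0.03 and 0.06. Without wild-type male 3 Psmb5 was called higher in mice labelled Q140 Polq+/- (0.08, adjusted p = 0.0313) and over all carriers (0.06, adjusted p = 0.0112), and Psmb7 over all carriers (0.07, adjusted p = 0.0102).

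With all libraries no gene of the structural rings of the core was called in either Q140 comparison on counts, and without wild-type male 3 Psma1 (0.12, adjusted p = 0.000628) and Psmb4 (0.08, adjusted p = 0.0187) were called higher in Q140. With all libraries, of 8 alpha ring genes and 4 noncatalytic beta ring genes 0 were called by edgeR or DESeq2, with 1 alpha gene at an unadjusted p under 0.05 in Q140 and 0 in mice labelled Q140 Polq+/-, and limma on FPKM called 1 alpha gene in each. By edgeR over all carriers 1 ring gene was called, Psma1 (0.06, adjusted p = 0.0327). That call was lost without the 4 mice of lowest Polq (adjusted p = 0.167) and without a filter on low counts (adjusted p = 0.0578). It was also lost when any of 3 single libraries was left out. Of all genes edgeR called 32.1% in Q140, 31.4% in mice labelled Q140 Polq+/- and 44.8% over all carriers. The noncatalytic beta genes lay between -0.01 and 0.02 in Q140 against wild type. The 4 core assembly chaperones Psmg1 to Psmg4 gave 0 calls by edgeR and DESeq2 in the same comparisons, with 1 at an unadjusted p under 0.05 in Q140 and 0 in mice labelled Q140 Polq+/-, where limma on FPKM called 0 and 2.

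In the regulatory particle 3 of 6 ATPases were called lower in Q140 against wild type and 0 of 6 in mice labelled Q140 Polq+/-. Of all 18270 genes tested 2774 and 2798 were called lower in these comparisons, and 32.1% and 31.4% were called in either direction. Over all carriers 3 of 6 were called lower, where 44.8% of all genes were called in either direction. They were Psmc1 (-0.06), Psmc2 (-0.08) and Psmc5 (-0.08). These 3 calls were kept whichever single library was left out, and were lost on FPKM. Without wild-type male 3 Psmc5 alone of the 6 was called lower in Q140, and Psmc4 was called higher (0.07, adjusted p = 0.0351). Psmc5 had 97.5, 101.7 and 107.5 CPM in Q140 striatum, against 105.1, 109.4 and 124.8 CPM in wild-type striatum (-0.13, SE 0.0306, adjusted p = 0.00115). It had 96.4, 103.6 and 109.8 CPM in mice labelled Q140 Polq+/-, against 103.6, 106.4 and 110.8 CPM in those labelled Polq+/- (-0.04, adjusted p = 0.359). All 8 Q140 mice lay below the wild-type median although the ranges overlapped, and without wild-type male 3 the change was -0.10 (adjusted p = 0.00302).

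The other ATPase calls in Q140 against wild type were less steady. Psmc2 (-0.10, adjusted p = 0.0224) and Psmc1 (-0.07, adjusted p = 0.0481) had their highest wild-type values in male 3, at 101.6 and 116.7 CPM, and without that mouse were at -0.06 (adjusted p = 0.0611) and -0.04 (adjusted p = 0.135). The Psmc1 call was lost in 26 of the 32 fits that left out 1 library, and also without a filter on low counts, without the 4 mice of lowest Polq and with only the groups compared. The Psmc2 call was also lost without Q140 female 2 and with only the groups compared (adjusted p = 0.082). Psmd3, a lid subunit, had 117.4, 121.2 and 126.7 CPM in Q140 striatum, against 120.6, 129.7 and 132.2 CPM in wild-type striatum (-0.07, adjusted p = 0.0231), and all 8 Q140 mice lay below the wild-type median. The Psmd3 call was lost with the plate column as a factor (adjusted p = 0.0621), without a filter on low counts (adjusted p = 0.0632), with only the groups compared (adjusted p = 0.0713) and without wild-type female 4. On FPKM none of these 4 was called in Q140 against wild type (adjusted p = 0.107 for Psmc5, 0.446 for Psmc2, 0.81 for Psmc1 and 0.724 for Psmd3), and over all carriers Psmc1 and Psmd3 turned from -0.06 and -0.05 on counts to slightly above 0 on FPKM. Psmc2 lies 12.96 Mb from Htt on chromosome 5.

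Among the other regulatory particle genes, the lid subunit Psmd8 had 65.6, 66.9 and 68.6 CPM in mice labelled Q140 Polq+/-, against 61.2, 63.5 and 64.4 CPM in those labelled Polq+/-, with no overlap (0.09, adjusted p = 0.0185), a call that was lost under 1 of 11 other settings, without the 4 mice of lowest Polq. In Q140 it had 64.7, 67.2 and 73.8 CPM, against 61.2, 64.8 and 74.8 CPM in wild type (0.05, adjusted p = 0.257). Psmd9, a chaperone of base assembly, was at 0.10 (adjusted p = 0.023) in Q140 and 0.07 (adjusted p = 0.118) in mice labelled Q140 Polq+/-. Its call was lost under 3 of 11 other settings and when any of 4 single libraries was left out. Over all carriers Psmd1, a scaffold subunit of the base, was at 0.05 (adjusted p = 0.0189), a call that was lost with the plate column as a factor (adjusted p = 0.132). The ATPases, Psma1, Psmd1, Psmd3, Psmd8, Psmd9, Psme2 and Psme2b were named after their values were seen.

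Genes outside the Psm symbols that make or control the proteasome are given beside the 32.1% of all genes called in Q140 and the 31.4% called in mice labelled Q140 Polq+/-. Of 11 further subunits and associated proteins 0 were higher and 3 lower in Q140 striatum, the core maturation factor Pomp (-0.12, adjusted p = 0.0443), the ubiquitin receptor Adrm1 (-0.13, adjusted p = 0.0227) and the lid subunit Shfm1 (-0.15, adjusted p = 0.0237); in mice labelled Q140 Polq+/- they were at -0.08, -0.10 and -0.20, the last alone called (adjusted p = 0.00237). The highest wild-type value of Pomp, 66.0 CPM, was that of male 3. Of 11 genes listed as regulators of proteasome genes 0 were higher and 3 lower in both comparisons. Nfe2l1, the transcription factor that raises proteasome gene expression when proteasome activity is low, had 291.8, 298.6 and 318.0 CPM in Q140 striatum, against 309.9, 335.8 and 346.1 CPM in wild-type striatum (-0.14, adjusted p = 1.08e-05). It was at -0.17 (adjusted p = 5.09e-07) in mice labelled Q140 Polq+/-. Its dimer partner Mafg was at -0.17 and -0.25, and the ubiquitin ligase Stub1 at -0.18 and -0.15.

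Of 19 ubiquitin and shuttle genes 5 were higher and 3 lower in Q140, and 4 and 4 in mice labelled Q140 Polq+/-. These counts, and those of the next list, stand beside 32.1% and 31.4% of all genes called in the 2 comparisons. The main ubiquitin-activating enzyme Uba1 was at 0.19 (adjusted p = 6.87e-08) and the shuttle factor Ubqln4 at -0.25 (adjusted p = 3.86e-09) in Q140. Of 16 antigen processing and interferon genes 2 were higher and 2 lower in Q140, and 3 and 0 in mice labelled Q140 Polq+/-. The peptide trimming enzyme Erap1 was at 0.32 and 0.33. Irf1 and Isg15, an interferon-induced transcription factor and ubiquitin-like protein, were at -0.24 (adjusted p = 0.0167) and -0.50 (adjusted p = 0.0481) in Q140 and at 0.01 and -0.02 in mice labelled Q140 Polq+/-.

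No proteasome gene passed the threshold for the knock-in in cortex. By edgeR 0 of 48 members were called in Q140 against wild type (0.348% of all genes; 3 members at an unadjusted p under 0.05), 0 in mice labelled Q140 Polq+/- against Polq+/- (0.337%; 2 members) and 0 over all carriers (2.46%; 3 members), and DESeq2 and limma on FPKM also gave 0. Psme1 had 17.97, 18.7 and 20.02 CPM in Q140 cortex, against 15.03, 18.3 and 19.4 CPM in wild-type cortex, and 17.9, 19.5 and 20.5 CPM in mice labelled Q140 Polq+/-, against 16.4, 18.3 and 19.8 CPM in those labelled Polq+/-. It had the smallest adjusted p of the members over all carriers there (0.08, SE 0.0313, adjusted p = 0.166). Psmb10 had 23.7, 24.8 and 27.6 CPM in Q140 cortex, against 22.3, 24.5 and 26.8 CPM in wild-type cortex, and its change over all carriers was 0.03.

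The difference between tissues was tested directly. In the fit of both tissues, 7 members changed more positively and 2 more negatively in striatum than in cortex, 18.8% of members and 32.1% of all genes. Psme1 had the smallest adjusted p (0.33, adjusted p = 5.66e-06), followed by Psmb10 (0.28, adjusted p = 8.29e-05). Psme2b (0.17), Psmf1 (0.09), Psme4 (0.08), Psmd8 (0.07) and Psmc4 (0.06) were the others above 0, and Psmd3 (-0.08, adjusted p = 0.000756) and Psmc2 (-0.09, adjusted p = 0.00806) were below. Psmb8 did not pass (-0.26, adjusted p = 0.0743). The calls of Psmd8 and Psme4 were lost when any of 22 and 6 single mice was left out, and those of Psme2b, Psmd8 and Psmc4 without the 4 mice of lowest Polq. Those of Psmf1 (adjusted p = 0.0722), Psme4 (0.058) and Psmc4 (0.0881) were lost in edgeR without the mouse block. Psme4 was also lost without the 3 mice whose libraries stood apart (0.0842), and Psmd8 by DESeq2 (0.0525). Without a filter on low counts Psmd8 and Psmc4 were lost. Without wild-type male 3 all 9 calls were kept and Psma1, Psmb7, Psmd6 and Psme2 were added (27.1% of members and 33.4% of all genes). On FPKM 19 members were above 0 and 0 below, with 71.6% of all called genes above 0.

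**Figure D5:**
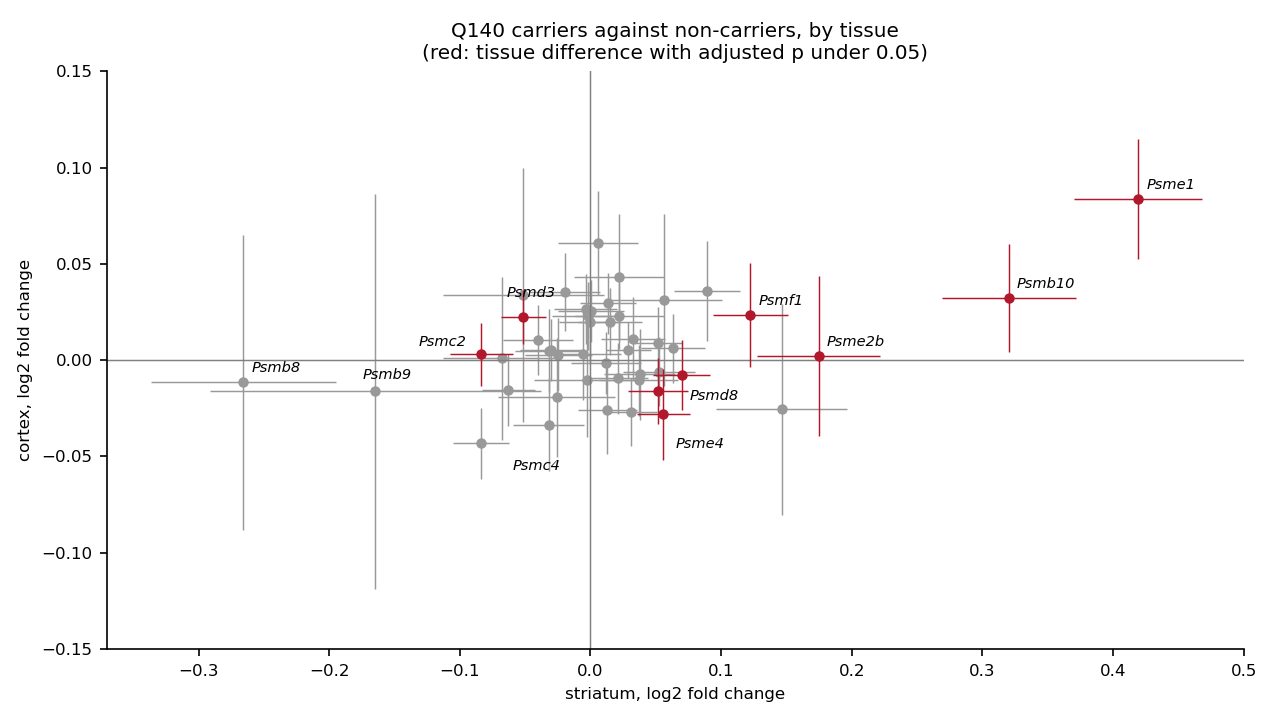
Log2 fold change of all Q140 carriers against all non-carriers in striatum (horizontal) and cortex (vertical) with standard errors, 1 point per member; Psma8 is not drawn, red points differ between tissues. Psme1 (0.42 in striatum, 0.08 in cortex) and Psmb10 (0.32 and 0.03) lie far to the right, and no member lies far from 0 in cortex.

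The Polq label was not followed by a called change of any member. Among mice labelled Q140 Polq+/- against Q140, edgeR called 0 members in striatum (0.0547% of all genes; 3 at an unadjusted p under 0.05) and 0 in cortex (0.0552%; 0 members). Among mice labelled Polq+/- against wild type it called 0 in striatum (0.0493%; 3 members) and 0 in cortex (0.0442%; 4 members). The interaction of knock-in and Polq label gave 0 in striatum (0% of all genes; 3 members) and 0 in cortex (0%; 4 members), and DESeq2 and limma on FPKM gave 0 in all 6. Leaving out the 4 mice with the lowest Polq changed none of these counts.

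Males and females were compared for the size of the Q140 effect, as males minus females. By edgeR 0 members were called in striatum (0% of all genes; 1 member at an unadjusted p under 0.05) and 0 in cortex (0%; 2 members), and by DESeq2 and limma 0 as well. The striatal member was Psmb8, at -0.37 (SE 0.133, adjusted p = 0.967).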

How the data were processed

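Striatal and cortical RNA of 32 mice gave 64 TruSeq stranded libraries, per the labels' protocols. Per the submitters' processing notes the tools were STAR 2.7.5c, SAMtools 1.10 and HTSeq 0.12.3, with GRCm38 as the build; the annotation and strand setting used in counting are not given in the sources used here. Gene counts and FPKM were deposited by the authors for each library, and both were used as they stand. The deposited FPKM (fragments scaled to gene length and library size) equalled the counts times a constant of the library and a constant of the gene, checked over 15456 genes with at least 10 counts in every library (relative spread at most 6.9e-09).

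Here counts were tested with edgeR 4.0.16 (R 4.3.3): TMM scaling, filterByExpr by genotype, robust quasi-likelihood fit of all 32 libraries of a tissue with sex as a covariate, genotypes as contrasts, and, for tissue comparisons, a fit of all 64 libraries blocked by mouse. In striatum 18270 genes, in cortex 18116 and in both 19091 were tested, and 48 of 49 members passed the filter. P-values were adjusted over all genes tested, and an adjusted p under 0.05 was a call. Depth was 28.7 to 40.6 M counts per library, and no pair of libraries was identical. Alternatives were DESeq2 1.42.0, its size factors in edgeR, limma 3.58.1 (trend) on log2(FPKM + 1) and log2(FPKM + 0.1), no filter, no sex term, only the groups compared, a replicate block, the plate column of the well address as a factor, no mouse block, and leaving out libraries. The fits were tested on simulated counts with a fixed spread and changes larger than those of most members. Changes as small as most of those reported here were not simulated. Positions come from GENCODE M21 (GRCm38), which holds all 49 members, and upstream sequences from RefSeq (GRCm38.p6).

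The members, gene lists and marker lists were chosen with earlier results of these data known. Genes given in full were the 6 catalytic beta subunits, members called in both striatal Q140 comparisons, up to 3 per direction with the largest tissue difference, any member called where 5 or fewer were, and up to 4 genes of each other list with the smallest p in Q140 striatum; others were named after their values were seen. Some genes of these lists are not reported here by name.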

Additional observations from a re-analysis of the deposited data

Results flagged for a closer look

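A mouse far from the rest of its group was found in 13 of 120 gene and group combinations, where chance gives about 1 in 20 for a single combination; 7 of the 13 come from 1 library, so the combinations are not independent. In wild-type striatum male 3 was the far value for Psmb5 (41.3 CPM), Psmb6 (87.9), Psmb7 (83.7), Psme1 (24.1), Psme2b (11.6), Psmc1 (116.7) and Psmc2 (101.6). The far values in striatum of mice labelled Polq+/- were Psme1 in female 4 (13.2 CPM), Psme2b in female 2 (7.39) and Psmg4 in male 3 (3.82). In mice labelled Q140 Polq+/- they were Psme2 in striatum of male 4 (8.07 CPM) and Psmb6 in cortex of female 3 (61.9), and in Q140 cortex Psme2 in male 3 (3.61).

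The Q140 effect differed between striatum and cortex, by the term for that difference in the edgeR fit of both tissues, for 9 members. The log2 difference was 0.33 for Psme1, 0.28 for Psmb10, 0.17 for Psme2b, 0.0915 for Psmf1, 0.0782 for Psme4, 0.0712 for Psmd8 and 0.0619 for Psmc4, and -0.0804 for Psmd3 and -0.0926 for Psmc2.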

How the results depend on the processing

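In Q140 against wild type, 5 members were higher and 5 lower with all libraries. The higher count was 3 with the plate column as a factor, 13 without the 3 striatal libraries that stood apart and 16 on FPKM with either pseudocount, and 4 to 14 when single libraries were left out. The lower count was 3 without a filter on low counts, 1 on FPKM and 2 with only the groups compared, and 3 to 6 when single libraries were left out. In mice labelled Q140 Polq+/- against Polq+/- the counts of 6 and 0 became 18 higher on FPKM, and 1 lower without the 3 libraries and 2 lower with only the groups compared; single libraries gave 4 to 8 higher and 0 to 1 lower. Over all carriers FPKM gave 28 higher and 1 lower in place of 10 and 5, and single libraries 9 to 17 higher. In the tissue difference the 7 above 0 became 4 without the mouse block and 19 on FPKM, the 2 below became 0 on FPKM, and leaving out single mice gave 5 to 11 above and 2 to 3 below. Leaving out single mice in wild-type striatum against cortex gave 10 to 12 higher and 20 to 25 lower. The highest count from leaving out 1 library in Q140 against wild type, 14, came without wild-type male 3; the cause of the FPKM shift was not tested. Psmc1 and Psmd3 over all carriers reversed on FPKM, Psmc1 to 0.00268 and 0.00274 and Psmd3 to 0.0128 and 0.0133 with pseudocounts of 1 and 0.1. The calls of Psme1, Psmb10 and Psmb8 in Q140 against wild type were kept under every alternative run. With the replicate number as a block the counts were 5 higher and 5 lower, 5 and 0, and 10 and 5 in the 3 striatal comparisons, with Psmf1 lost in mice labelled Q140 Polq+/- (0.10, adjusted p = 0.0506). Same-numbered libraries did not deviate together (median correlation 0.0202 in striatum and 0.0273 in cortex), so the numbers do not pair the mice. Psmb8, Psmb9, Psma8 and Psmb11 are limited by depth.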
